A study of Mus musculus with 11 samples.

Results

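The wells described here come from single-cell RNA sequencing of the adult mouse testis and are those whose counted RNA was richest in Kcnq1ot1 and Vmn2r55. Unique molecular identifiers (UMIs, random tags that mark single RNA molecules) were counted in each well, without the ERCC spike-in RNAs added in known amounts, mitochondrial genes, the eGFP reporter and the ribosomal RNA precursor Rn45s. Of 1920 wells, 334 held 1000 to 5000 UMIs and were kept. The score of a well was the percentage of its UMIs from Kcnq1ot1 and Vmn2r55, and the 60 kept wells of highest score are the members, compared with the other 274. As these 2 genes chose the wells, their high levels are a description and not a finding, and the score also rises when a well holds less RNA of other genes.

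The study sorted live cells positive for green fluorescent protein from testes of 3 untreated adult Dazl-GFP mice, Dazl being a gene of germ cells, to follow germ cells into meiosis. Cells were sorted singly into plates and their polyadenylated RNA was counted by SORT-Seq, a plate version of CEL-Seq in which RNA is copied from its 3′ end. Mouse 1 gave 8 libraries of 96 wells by CEL-Seq1 after index sorting, which records each cell's fluorescence, and the table does not separate these 8. Mouse 2 gave 1 index-sorted library and mouse 3 gave 1 gate-sorted and 1 index-sorted library, each of 384 wells by CEL-Seq2. The replicate is the mouse, the protocol of mouse 1 cannot be told apart from the animal, and all mice carry the reporter.

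Kcnq1ot1 is a long noncoding RNA transcribed antisense to the potassium channel gene Kcnq1, and it is known for silencing neighbouring genes on the paternal chromosome. Vmn2r55 belongs to the family of vomeronasal pheromone receptors, which serve sensory neurons of the nose. In CEL-Seq data from other mouse tissues, cells rich in Kcnq1ot1 and in genes that vary with it have been set aside as low in quality, which is background and was not tested in these mice. In the GENCODE annotation of mouse build GRCm38, Kcnq1ot1 lies at chr7:143203458-143296549 on the minus strand, within the Kcnq1 locus, and Vmn2r55 at chr7:12651706-12685003 on the minus strand.

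Some genes that were higher in the members hold stretches of the Kcnq1ot1 transcript, and 4 of these are printed because they show what the transcripts have in common and which reads cannot be assigned to 1 gene from the stretch alone. Each is written 5′ to 3′ in the sense of Kcnq1ot1 (minus strand), as in the GENCODE M21 transcripts. The first lies at chr7:143228294-143228322 and again at chr7:143223971-143223999 and is also in A630089N07Rik and Grk4. The second lies at chr7:143220504-143220531 and is also in A130077B15Rik, Slfn9 and Syne1. The third lies at chr7:143206058-143206087 and is also in A130077B15Rik, Acad9, Gm7609, Ms4a6c and Tbc1d8b. The fourth lies at chr7:143204626-143204650 and is also in 6030440G07Rik, Cxcr2, Eif2ak2, Glrx2, Skint4 and Vmn1r58.
Stretch 1: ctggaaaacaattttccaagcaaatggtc
Stretch 2: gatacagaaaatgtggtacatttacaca
Stretch 3: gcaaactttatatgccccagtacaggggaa
Stretch 4: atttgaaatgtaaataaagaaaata
These 4 were chosen after the genes were tested. Of the 4259 genes tested that have a GENCODE transcript, the stretches occur in 2, 5, 10 and 12 genes in that order, and over all annotated genes in 21, 50, 61 and 65.

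The members were spread unevenly over the mice. Mouse 1 held 1 of 98 kept wells (1.02%, exact 95% interval 0.0258 to 5.55%), mouse 2 held 8 of 84 (9.52%, exact 95% interval 4.202 to 17.9%) and mouse 3 held 51 of 152 (33.6%, exact 95% interval 26.1 to 41.7%). Within mouse 3 the gate-sorted library held 13 of 58 (22.4%, exact 95% interval 12.5 to 35.3%) and the index-sorted library 38 of 94 (40.4%, exact 95% interval 30.4 to 51.0%), so that 1 library gave 38 of the 60 members. These Clopper-Pearson intervals cover counting error only. The last member scored 4.66% and belonged to mouse 1, and the next well outside scored 4.06%. In mouse 2 no kept well lay between 3.84% and 8.51%, and in the index-sorted library none lay between 3.41% and 5.99%. Among wells left out of the range, 7 of 1114 above 5000 UMIs and 40 of 472 below 1000 UMIs scored at or above the lowest member. The 3 CEL-Seq2 libraries use the same 384 well numbers, and of their 59 members 3 numbers were a member in a pair of libraries and none in all 3. In mouse 2 all 8 members had numbers above 192, against 39 of 76 other wells. In the gate-sorted library 10 of 13 did, against 26 of 45, and in the index-sorted library 18 of 38, against 28 of 56.

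**Figure D1:**
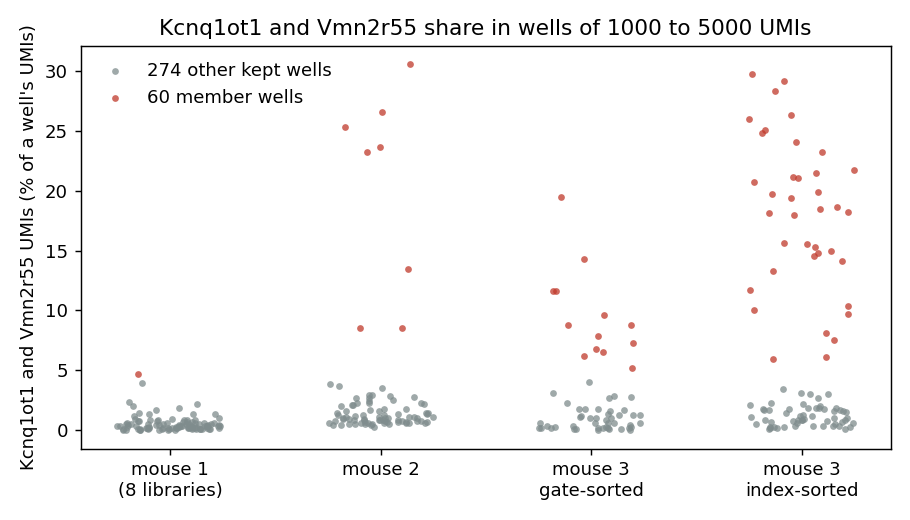
Share of Kcnq1ot1 and Vmn2r55 UMIs (y axis, % of a well's UMIs) in each kept well, by mouse and library, with members in red and other kept wells in grey. Mouse 1 has 1 member at 4.66%, and members of mouse 2 and of the index-sorted library stand apart from the other wells of their library.

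Kcnq1ot1 took 17.4% of the UMIs of the members of mouse 2, 7.41% in the gate-sorted and 14.4% in the index-sorted library of mouse 3, and 3.87% (39 UMIs) in the single member of mouse 1. The other kept wells held 1.04%, 0.892%, 0.977% and 0.450% in the same order. Vmn2r55 took 5.54%, 2.14%, 3.79% and 0.794% of member UMIs, against 0.206%, 0.169%, 0.179% and 0.0789%. The single wells of mouse 2 ran from 6.30% to 22.4% Kcnq1ot1 (median 17.9%), those of the gate-sorted library from 4.32% to 15.4% (median 6.49%) and those of the index-sorted library from 4.70% to 23.5% (median 14.7%). Kcnq1 itself had 0 UMIs in members and other kept wells of mice 2 and 3.

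Per 100 ERCC UMIs, which scale a well to the added spike-in RNA, the members held 84.4 Kcnq1ot1 UMIs in mouse 2, 38.2 in the gate-sorted and 50.9 in the index-sorted library. The other kept wells held 8.35, 5.02 and 4.79, and wells above 5000 UMIs held 20.5, 15.4 and 8.95. All genes apart from the rule genes and the 137 called higher (below) gave 220.0, 390.0 and 193 UMIs per 100 ERCC UMIs in members, below the 775, 547 and 475 of the other kept wells. As the wells were chosen on the ratio of these quantities, these values describe the choice, and nothing is read from their direction.

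The 2 rule genes chose nearly the same wells when each was used alone. The 60 wells of highest Kcnq1ot1 share were the same 60 wells. Vmn2r55 gave 955 UMIs there in mouse 2 and 3573 in mouse 3, or 67083.5 and 36566 per 1000000 UMIs without Kcnq1ot1, against 2085 and 1761 in the other wells. Of the 60 wells of highest Vmn2r55 share, 58 were members. Kcnq1ot1 reached 173223 and 122066 per 1000000 UMIs without Vmn2r55 in these wells of mice 2 and 3, against 10433 and 9458. As both genes are part of the score and their shares have the same total, which is lower where other RNA is scarce, these values are a description with no test.

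Beyond the rule genes, 137 genes were called higher in the members and 8 lower. With Kcnq1ot1 and Vmn2r55 taken out, UMIs were summed per mouse and class for the mice with at least 5 members (mice 2 and 3) and fitted with edgeR's quasi-likelihood test with the mouse as a block and Benjamini-Hochberg adjustment, for 4487 genes. At an adjusted p under 0.05, the higher genes were 3.05% of those tested and the lower 0.178%, with each of the 145 moving the same way in both mice. At an unadjusted p under 0.05 edgeR gave 224 higher and 134 lower. The member sums held 13281 and 94140 UMIs against 226836 and 272159 in the other wells of mice 2 and 3, so a fall leaves fewer UMIs to test than a rise, and the counts of higher and lower genes are not comparable. The 137 had a median log2 fold change of 3.47 (range 2.03 to 6.49), and the median of all genes tested was -0.15. Scaling to library totals in place of edgeR's TMM factors moved that median to -0.61 and the split to 128 higher and 78 lower. Without the index-sorted library 25 genes were higher and none lower, all 25 among the 137, with 75 higher and 59 lower at an unadjusted p under 0.05. Without the gate-sorted library 119 were higher and 32 lower.

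The most abundant of the higher genes were Gm17821, A630089N07Rik and Grk4. Gm17821, annotated as a processed pseudogene at chr12:67658527-67669276, stood at 142760 CPM (UMIs per 1000000 UMIs of all genes but the rule genes, as in the next values) in the members of mouse 2, 55466 in the gate-sorted and 109310 in the index-sorted library, against 5739.8, 4753 and 5281 in the other wells. Its log2 fold change over the 2 mice was 4.75 ± 0.52 (SE, edgeR adjusted p = 2.79e-17). Each SE given with an edgeR value was derived from the log2 fold change and edgeR's F statistic. With only 2 mice, the edgeR p-values rest largely on variability that edgeR pools over genes. Neither the SE nor the p-value is a measure of the spread between mice. A630089N07Rik, a protein-coding gene model at chr16:98001310-98082450, stood at 99089, 46026 and 95935 CPM against 3350.4, 3822 and 4083 (log2 fold change 4.95 ± 0.51, edgeR adjusted p = 3.30e-19). Grk4, a kinase of G protein-coupled receptors encoded at chr5:34660379-34755305, stood at 45779.7, 20143.5 and 38792 against 1543, 1765 and 1803 (4.88 ± 0.48, edgeR adjusted p = 3.43e-21). For these 3 genes the member sum was above the sum of the other wells in each library, and the gate-sorted members were the lowest of the 3 member sums. Without the index-sorted library their log2 fold changes were 4.41, 4.56 and 4.53 with edgeR adjusted p of 0.915, 0.865 and 0.416. Without mouse 2, in the choice of 20 wells a mouse given further on, they were 3.13, 3.36 and 3.23, with adjusted p of 0.803, 0.737 and 0.378.

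Together with the rule genes, these 3 took 45.1% of all member UMIs in mouse 2, 20.6% in the gate-sorted and 38.2% in the index-sorted library, against 2.30%, 2.08% and 2.26% in the other kept wells. Their proportions to Kcnq1ot1 moved less than their levels. For each 100 Kcnq1ot1 UMIs the members held 63.3, 67.7 and 61.9 of Gm17821, and the other kept wells 54.3, 52.7 and 53.4. For A630089N07Rik the members held 43.9, 56.2 and 54.3, and the other wells 31.7, 42.4 and 41.3. For Grk4 the members held 20.3, 24.6 and 22.0, and the other wells 14.6, 19.6 and 18.2. Vmn2r55 went from 19.8, 18.9 and 18.3 in other wells to 31.9, 28.9 and 26.2 in members, which were chosen in part by it.

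The same genes varied together in wells the rule did not use. Across wells above 5000 UMIs, taken by library (447, 237, 244 and 186 wells), the share of Gm17821 followed that of Kcnq1ot1 with a Spearman rho of 0.86 to 0.89. A630089N07Rik gave 0.82 to 0.87, Grk4 0.74 to 0.77 and Vmn2r55 0.73 to 0.82, while Synj2bp gave 0.17 to 0.31. The median over the genes tested was -0.07 to -0.02 and over those called higher -0.0025 to 0.07. The Kcnq1ot1 share itself ran against total UMIs in these wells (rho -0.57 to -0.41), and wells of 1 library share its depth, so these values are descriptions.

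**Figure D2:**
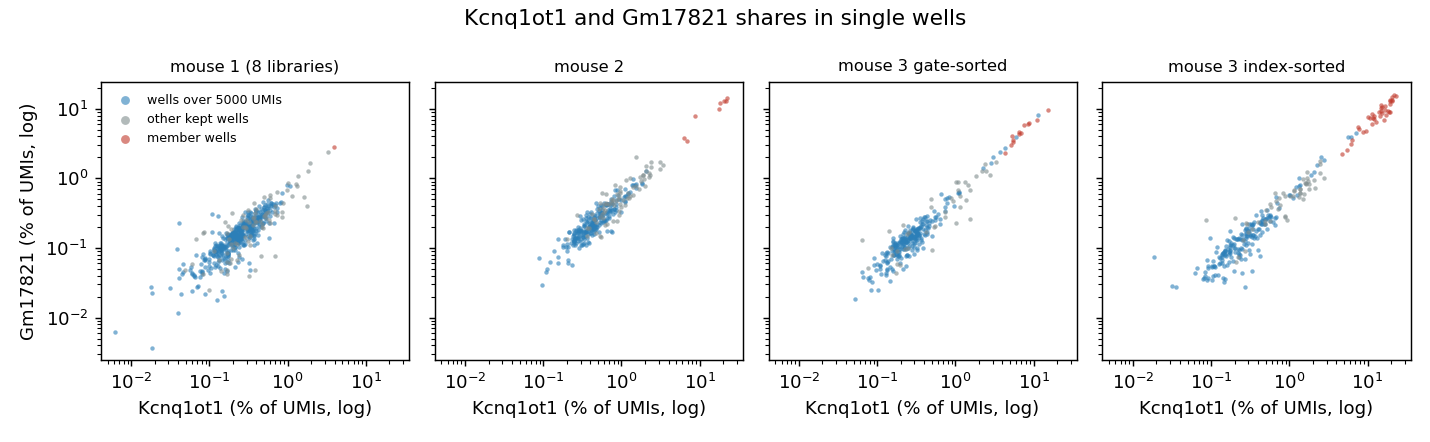
Share of Gm17821 (y, % of UMIs, log axis) against Kcnq1ot1 (x, % of UMIs, log axis) in single wells, by mouse and library: wells over 5000 UMIs in blue, other kept wells in grey, members in red, with 23 of 1448 wells left out because a gene was at 0. Members lie at the upper end of the same band as the other wells.

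Genes of lower level were also among those of highest fold, both noncoding RNAs and protein-coding genes. Mid1, an X-linked ubiquitin ligase gene that acts at microtubules, had the highest fold change of the genes named, 6.49 ± 0.56 (SE, edgeR adjusted p = 1.33e-26). It gave 27 UMIs in the 8 members of mouse 2 and 134 in the 51 of mouse 3, against 8 and 4 in the other kept wells. Genes this rare in the other wells, Naaa and Myoz3 among them, can pass the filter on low counts through the members alone. The list of highest folds therefore reflects the filter in part. With no filter on low counts 64 genes were called higher, 60 of them among the 137. Gm10785, an antisense RNA, stood at 15134, 4017 and 9074 CPM in the members of mouse 2 and of the gate-sorted and index-sorted libraries, against 458, 235 and 349.8 (5.18 ± 0.46, edgeR adjusted p = 8.50e-26). The antisense RNA D830005E20Rik rose by 5.21, 4930451C15Rik by 5.15 and the long intergenic RNA Gm20300 by 4.92 on the log2 scale. Naaa, which breaks down N-acylethanolamines, rose by 5.58 on few counts, with 13 and 9 member UMIs against 2 and 3. The muscle gene Myoz3 (4.93, on 3 and 13 member UMIs against 4 and 0), 4932411N23Rik (4.91), 9930111J21Rik1 (4.84), the Schlafen gene Slfn8 (4.82) and Mir1950 (4.76) were also among the 15 of highest fold.

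By level rather than fold, A130077B15Rik, a long intergenic RNA, stood at 8659, 1923 and 6746.5 CPM in the members of mouse 2, the gate-sorted and the index-sorted library, against 423, 243 and 397. Gm10845, another intergenic RNA, stood at 8659, 2554 and 4436 against 613, 543 and 424. Synj2bp, a protein of the outer mitochondrial membrane, stood at 7304, 1693 and 3711 against 410.0, 469.6 and 390.2. All 3 were higher in each library, with fitted log2 fold changes of 4.50, 3.75 and 3.82. F830016B08Rik (4.74), Slfn9 (4.62), 4930470H14Rik (3.87) and Cmah, which makes a form of sialic acid (4.26), passed the same test. Slfn8 and Slfn9, Vmn receptors and other members of gene families can share reads, and the counting of antisense genes by strand is not stated, so their counts are uncertain.

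**Figure D3:**
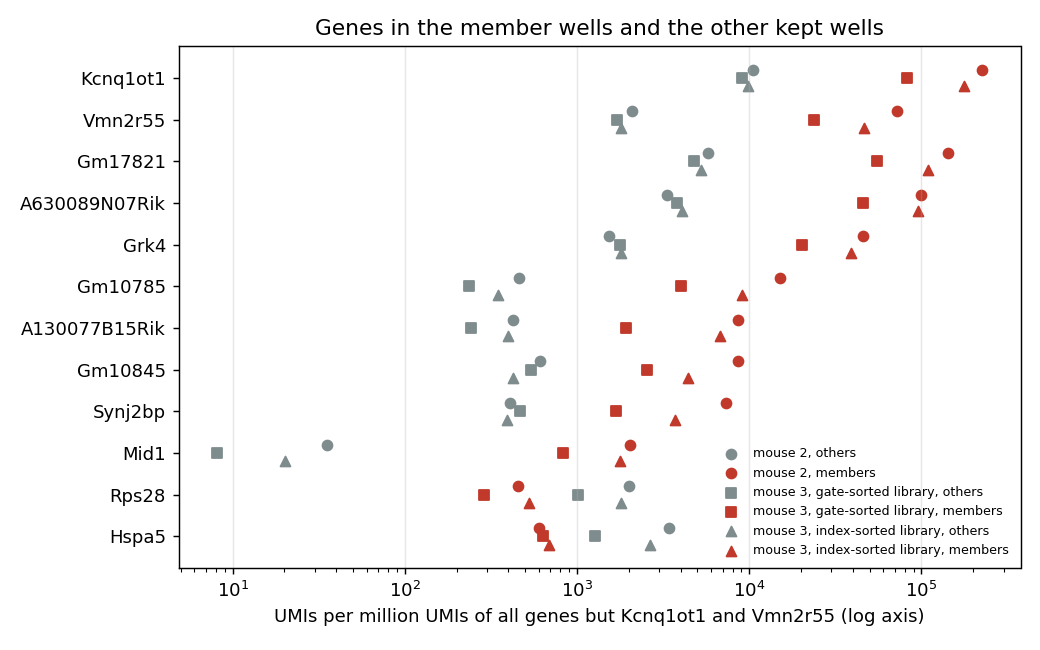
UMIs per 1000000 (x, log axis, of all genes but Kcnq1ot1 and Vmn2r55) of 12 genes summed over members (red) and other kept wells (grey), with circles for mouse 2, squares for the gate-sorted and triangles for the index-sorted library of mouse 3. The upper 10 genes are higher in members of each library, and Rps28 and Hspa5 are lower in each.

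Noncoding genes and pseudogenes were among the 137 higher genes. Of those with an annotated type, 35 of 124 were noncoding (28.2%), against 72 of 4256 genes tested (1.69%), and they held 7 of the 16 pseudogenes tested. A rare gene seen mainly in members passes the filter on low counts through them, as with the receptor genes described next, so these shares support nothing about noncoding genes. At least 1 stretch of 25 bases was shared with Kcnq1ot1 on the same strand in 35 of 125 higher genes that have a transcript (28%), and in 610 of 4259 tested (14.3%). On the opposite strand the shares were nearly the same, 33 of 125 (26.4%) and 591 of 4259 (13.9%). At least 20 such 25-base sequences, which may overlap, were shared on the same strand by 14 of 125 (11.2%) and by 59 of 4259 (1.39%). A630089N07Rik shared 152, Grk4 102, A130077B15Rik 95 and Slfn9 26, stretches 1 to 3 being among them, while Gm17821, Mid1, Gm10785 and Synj2bp shared none. A stretch held by the 5 higher genes Gjc3, Grk1, Tyms, Zfp300 and Zfp488 was not in the sense strand of Kcnq1ot1. It is the reverse complement of the Kcnq1ot1 sequence at chr7:143206064-143206088, which overlaps stretch 3. A run of 12 or more A bases was in 11.2% of the higher genes and 18.3% of those tested. These shares are given as descriptions, with gene models that may differ from those used for counting. Rare genes that pass the filter through the members are among those that share sequence too. The shares therefore support nothing about sequence shared with Kcnq1ot1.

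Sensory receptor genes other than Vmn2r55 were nearly silent, yet those that could be tested were higher. Of 131 vomeronasal receptor genes in the table, 2 passed the filter on low counts, Vmn1r58 (log2 fold change 3.18, edgeR adjusted p = 8.77e-06) and Vmn1r65 (3.35, 1.30e-04), and both were called higher. The family without Vmn2r55 summed to 18 and 78 UMIs in members against 25 and 31 in other wells of mice 2 and 3, or 1355 and 829 CPM against 110.2 and 114. Of 230 olfactory receptor genes 1 was tested, Olfr613, and it was called higher (2.26, edgeR adjusted p = 0.0360). A gene seen mainly in members passes a filter on low counts through them, so the counts of 2 of 2 and 1 of 1 support nothing about the families. Stretch 4 lies in Vmn1r58.

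A list of 10 genes was set down from general knowledge as markers of low-quality wells, with earlier results of these data in view, and 5 of them were in the table and tested. A630089N07Rik, Gm17821 and Mid1 were higher, 3 of 5 where 3.05% of all genes were, and as the list was written with results in view this count supports nothing. Malat1, a nuclear long noncoding RNA, gave -0.03 (edgeR adjusted p = 0.994) and the mitochondrial leucyl-tRNA synthetase gene Lars2 0.12 (0.985). Of 6 long noncoding RNAs tested from a list of 30, none was called. In the imprinted domain around Kcnq1 the table held 12 listed genes, summing to 3 and 25 UMIs in members and 83 and 99 in other wells. Only Cd81 and Nap1l4 were tested there, at 0.69 and -0.08 with edgeR adjusted p of 0.974 and 0.993.

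The members carried germ cell RNA. All 13 genes of a germ cell identity list were tested and none was called, with a median log2 fold change of -0.09 beside the -0.15 of all genes. Their summed level was 6701 and 10421 CPM in members and 13693 and 14514 in other wells of mice 2 and 3. Summed CPM also fall because the higher genes take counts. With member sums this small, no call does not show an unchanged level. Dazl stood at 904 and 786 CPM in members of mice 2 and 3 and at 2478 and 1782 in other wells (-0.90 ± 0.42, edgeR adjusted p = 0.523). No member held a UMI of the eGFP row, where 0 of 60 allows up to 5% of wells with such a UMI. As only 1 of 274 other kept wells and 56 of 1114 wells above 5000 UMIs held one, though all were sorted for the reporter, this says nothing of which cells the members are. Markers of somatic testis cells were scarce: in members of mice 2 and 3, Sertoli genes gave 1 and 8 UMIs, Leydig genes 1 and 1, peritubular and endothelial genes 2 and 3, and macrophage and blood genes 0 and 3. The other kept wells gave 42 and 88, 3 and 3, 1 and 2, and 0 and 0 in that order, from larger sums. Per UMI, peritubular and endothelial genes were higher in members, at 151 and 31.9 CPM against 4.41 and 7.35. Sertoli genes were lower, at 75.3 and 84.98 against 185 and 323. Leydig genes gave 75.3 against 13.2 in mouse 2 and were not higher in mouse 3. Macrophage and blood genes gave 31.9 against 0 in mouse 3. Apart from Sertoli genes in mouse 3, member sums were 3 UMIs or fewer, so no direction is read from them. The Sertoli gene Wt1 had 0 UMIs in members of both mice and Sox9 had 0 and 4.

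Of 15 leptotene and zygotene genes 13 were tested and 1 was called lower, where 0.178% of all genes were. All 13 were below 0, with a median log2 fold change of -0.92, where 57.8% of all genes tested were below 0 and their median was -0.15. Fmr1nb, an X-linked gene of the male germ line, stood at 0 and 31.9 CPM in members of mice 2 and 3 (0 and 3 UMIs). In the other wells it stood at 309 and 298 CPM (70 and 81 UMIs, from larger sums). Its log2 fold change was -2.98 ± 0.90 (SE, edgeR adjusted p = 0.0306). With 20 wells in each mouse, where members of mouse 3 were among the comparison wells, it gave -0.11 (edgeR adjusted p = 0.970). On the log2 scale Dmc1, the recombinase of meiotic strand exchange, gave -2.57 ± 0.83 (adjusted p = 0.0616) and Sycp3, of the axes of meiotic chromosomes, -1.03 ± 0.43 (0.327), both by edgeR. Pachytene genes were on the other side of the median, with 6 tested of 14, none called and a median of 0.62. Among them Piwil1, of the piRNA pathway, gave 1.08 ± 0.43 (edgeR adjusted p = 0.255). Their summed level was 3162 and 4865 CPM in members and 1993 and 4281 in other wells. Of 11 genes of differentiating spermatogonia 5 were tested and none was called (median -1.05). Of 13 genes of undifferentiated spermatogonia 1 was tested, Id4 (0.51), which is also in the pachytene list. Of 12 spermatid genes none was tested, and they gave 1 and 11 UMIs in members of mice 2 and 3.

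The 8 genes called lower were Gm364 (-3.21), Fmr1nb (-2.98), the endoplasmic reticulum peroxiredoxin Prdx4 (-2.75), Emc7 of the membrane protein insertion complex (-2.72), the Polycomb-type regulator Scml2 (-2.15), the ribosomal protein genes Rps21 (-1.78) and Rps28 (-1.47), and the endoplasmic reticulum chaperone Hspa5 (-1.54). Fmr1nb, Prdx4 and Scml2 had 0 UMIs in the members of mouse 2, so their fitted fold changes depend on the prior count. Hspa5 stood at 602, 631 and 692 CPM in members of mouse 2, the gate-sorted and the index-sorted library, against 3443, 1279 and 2637. Rps28 stood at 452, 287 and 523 against 1997, 1012 and 1796. Both were lower in each library. With 20 wells in each mouse none of the 8 was called, and their log2 fold changes ran from -1.26 (Prdx4) to -0.11 (Fmr1nb), with Gm364 at -0.72, Rps28 at -0.63 and Hspa5 at -0.59. In that choice members of mouse 3 were among the comparison wells. Gm364, Fmr1nb, Prdx4 and Scml2 are X-linked, and among 102 X-linked genes tested 7 were higher, 4 lower and 86 below 0 (median -0.85), beside 3.05% higher, 0.178% lower and 57.8% below 0 of all genes tested, a set looked at after the lower genes were seen. Outside the rule genes and those called higher, the X gave 1.90%, 0.668% and 1.64% of UMIs in members and 2.46%, 1.22% and 2.37% in other wells, and 1.15%, 0.703% and 1.01% above 5000 UMIs.

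Of the cytosolic ribosomal protein genes, 77 were tested, 2 were lower (Rps21 and Rps28), none was higher and 72 were below 0, beside 0.178% lower and 57.8% below 0 of all genes tested, with a median of -0.66. Their sum was 28160.5 and 34725 CPM in members and 68768 and 64749 in other wells of mice 2 and 3. Nuclear genes for respiratory chain subunits had 34 tested, none called, 31 below 0, against the same 57.8%, and a median of -0.50. Of the genes of stress and immediate early response 2 were tested and of p53 targets and cell death 2, none called, and of small nucleolar RNA host genes 3, also none called, with 4 and 28 UMIs of p53 targets and cell death genes in members. The genes called higher take a large part of the members' counts, so summed CPM fall for all other genes, and the fitted values correct for this only as far as TMM does.

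**Figure D4:**
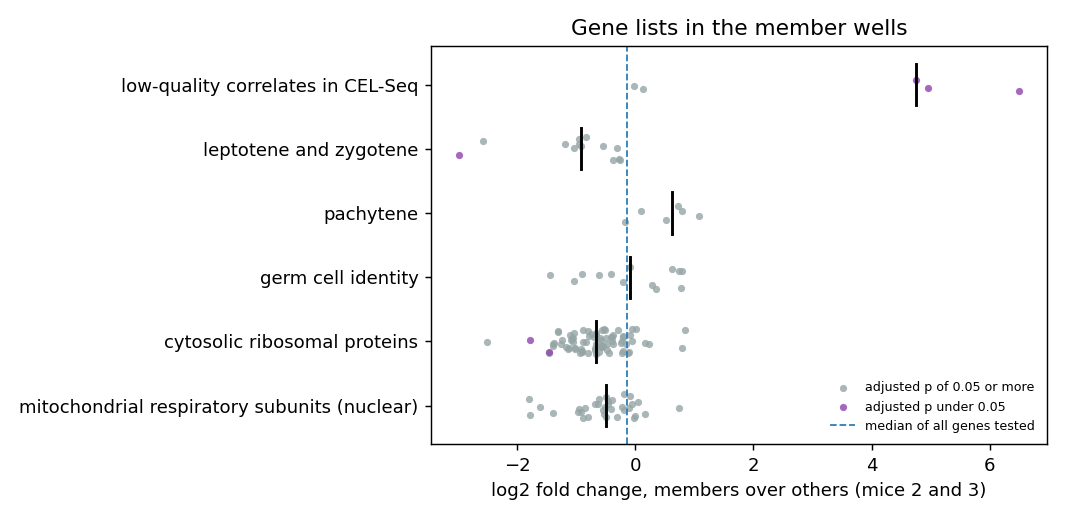
Log2 fold change in members over other kept wells (x, edgeR, mice 2 and 3) of the tested genes of 6 lists, with a black bar at each list's median, a dashed line at the median of all genes tested and purple points for adjusted p under 0.05. Leptotene and zygotene genes all lie below 0, and the 3 points furthest right are A630089N07Rik, Gm17821 and Mid1.

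The member wells also showed fewer genes, which follows in part from the choice of wells. The UMIs used here included the rule genes, so a well rich in them has fewer UMIs left to show other genes. Rule genes and those called higher took 54.7% of member UMIs in mouse 2, 24.2% in the gate-sorted and 45.3% in the index-sorted library. Whether members showed fewer genes apart from this was not tested. From 1000 UMIs drawn at random per well, members of mouse 2 showed 307 to 692 genes (median 474.5) and other wells 724 to 854 (800.5), with no overlap. The gate-sorted library gave medians of 671 and 808 and the index-sorted library 540.5 and 786, where 10 of 13 and 34 of 38 members lay below every other well. Without thinning, the medians were 873.5 genes against 1856 in mouse 2, 1632 against 1684 in the gate-sorted and 780 against 1506 in the index-sorted library. Total UMIs had medians of 1977 and 2935.5, 2711 and 2526, and 1513 and 2438.5, so that the gate-sorted members were not the shallower wells. Over 3 mice the mean difference in genes was -0.45 ± 0.31 on the log2 scale (SD, n = 3 mice, lower in 3 of 3, two-sided exact permutation p = 0.25). That is the smallest p that 3 mice allow, and mouse 1 enters with 1 well.

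Reads per UMI, which count how often each tagged molecule was sequenced, had medians of 2.48 in members and 3.64 in other wells of mouse 2, 2.50 and 2.95 in the gate-sorted and 2.02 and 2.74 in the index-sorted library. The member of mouse 1 went the other way, at 2.28 against 2.02. Endogenous UMIs per ERCC UMI had medians of 4.69 and 9.30, 4.53 and 6.80, and 3.53 and 5.22 in these libraries, with members up to 154. These medians were lower in members, but ranges overlapped widely. Members below the median of the other wells were 7 of 8 in mouse 2, 10 of 13 in the gate-sorted and 20 of 38 in the index-sorted library. As the score rises where other RNA is scarce, nothing is read from this direction. Mitochondrial UMIs made up 9.11% against 18.2%, 10.8% against 12.02% and 10.3% against 19.04%. Rn45s made up 2.38% against 6.93%, 0.401% against 0.590% and 0.400% against 1.19%. Both shares were lower in members of each of these libraries at the median. Their totals include the rule genes and those called higher, so both shares fall where these genes take counts. Whether mitochondrial or Rn45s RNA was lower apart from this was not tested. The part of any measure given here in the gene differences was also not tested. Over the 3 mice the two-sided exact permutation p was 0.25 for total UMIs, ERCC UMIs, UMIs per ERCC UMI and Rn45s, 0.5 for mitochondrial share and reads per UMI, and 1 for eGFP, none of which can fall below 0.25.

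**Figure D5:**
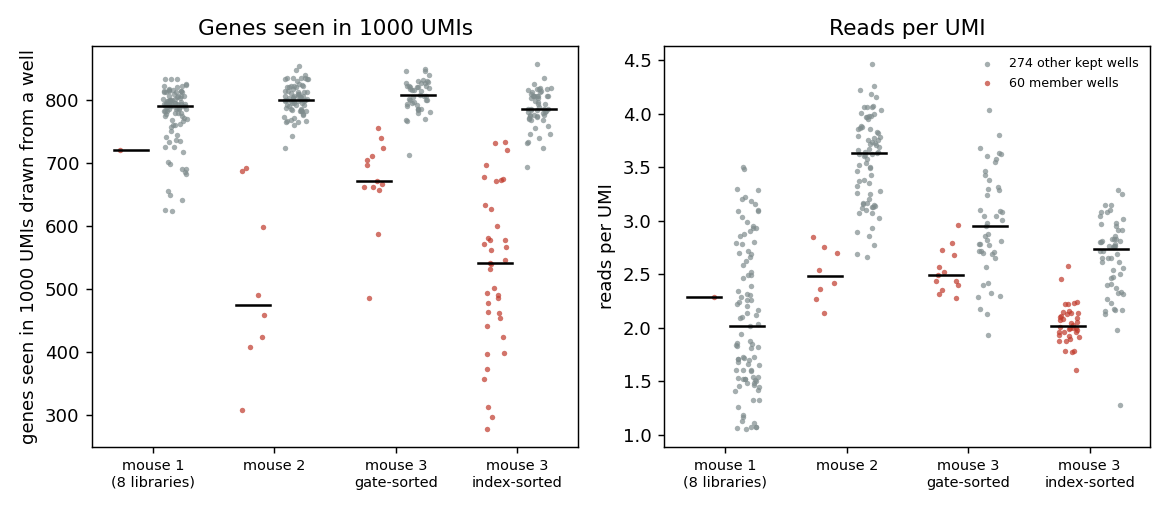
Genes seen in 1000 UMIs drawn from each well (left) and reads per UMI (right) by mouse and library, with members in red, other kept wells in grey and bars at medians. In mouse 2 every member lies below every other well for genes, and in mouse 1 the single member lies above the median for reads per UMI.

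A choice of 20 wells of highest score in each mouse brought mouse 1 into the comparison. Only 29 of these 60 wells were members, and the remaining members, all of mouse 3, were counted among the comparison wells. Gm17821 stood at 15669 CPM in the comparison wells of mouse 3, beside 5041 in the main comparison. This choice is therefore not a repeat of the same contrast. The 20 wells of mouse 1 scored 0.826% to 4.66% (median 1.37%), those of mouse 2 a median of 3.63% and those of mouse 3 21.6%. With these wells 74 genes were higher (2.42% of 3057 tested) and 1 lower (0.0327%), and 61 were shared with the 137, that is 44.5% of the 137 and 82.4% of the 74. In mouse 1, Gm17821 stood at 7945 CPM against 1894, A630089N07Rik at 6613 against 1239.7, and Grk4 at 2732 against 590.3. Over the 3 mice their log2 fold changes were 3.43 ± 0.70, 3.64 ± 0.67 and 3.59 ± 0.55 (SE, n = 3 mice), with edgeR adjusted p of 0.00154, 3.95e-04 and 2.02e-05. Without mouse 3 this choice called 59 genes higher and without mouse 2 it called 70. The single member of mouse 1 by the original rule held 28 UMIs of Gm17821 and 24 of A630089N07Rik among 1008, or 2.78% and 2.38%, against 0.284% and 0.209% in the other 97 wells. Of the other most abundant genes called higher it held 15 UMIs of Grk4, 5 of A130077B15Rik, 3 each of Gm10785, Gm10845 and Mid1 and 1 of Cmah, and none of Synj2bp, F830016B08Rik, Gm20300, Slfn9, 4930470H14Rik or D830005E20Rik, which took 0.0336% or less of UMIs in the other wells of mouse 1.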

How the data were processed

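Single wells of 3 Dazl-GFP mice were counted by SORT-Seq. The authors deposited UMI counts and read counts in 1 table each, and a transcripts table of estimated counts, in which 100% of the values of mice 2 and 3 equal the UMI count corrected for collisions among 4096 tags (within 1%). BWA 0.7.10 and the mouse build mm10 are named per the submitters' processing notes, and the annotation is not given in the sources used here. All columns could be mapped to a mouse by their prefix, and mouse 1 was treated as pooled over its 8 libraries. The members and gene lists were chosen with earlier results of these data known, and the list of markers of low-quality wells was written from general knowledge of CEL-Seq.

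ERCC, mitochondrial, eGFP and Rn45s rows were left out of totals. As each well received 1 sorted cell, doublets were not removed. UMI counts, without the rule genes, were summed per mouse and class (13281 to 272159 UMIs a sum) with Python 3.11.15 and pandas 2.3.3, and tested with edgeR 4.0.16 (R 4.3.3): TMM, filterByExpr, glmQLFit and glmQLFTest with the mouse as a block, since both sums of a mouse come from the same animal, and Benjamini-Hochberg adjustment. The fit was tested on simulated data. Tests of 1 rule gene in wells chosen by the other had been planned and are not given, as both genes chose the wells. Transcripts were rounded for their alternative. Genes named are the 15 of highest and 15 of lowest log2 fold change with at least 20 UMIs among those called and moving the same way in both mice (only 8 were lower, and 1 gene that the rule takes is not reported here), list genes, and the most abundant genes called higher, which were added after their values were seen. Well medians per mouse were compared by a two-sided exact permutation test within mice. The 25-base stretches were sought in GENCODE M21 transcripts of GRCm38, the build that mm10 names, leaving out stretches of low complexity. Alternatives were other scalings, filters, tools, tables, choices of wells and replicates left out, and 5 more were chosen after seeing the data (each library of mouse 3 left out, and 20 wells a mouse with each mouse left out).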

Additional observations from a re-analysis of the deposited data

How the results depend on the processing

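The count of 137 genes called higher fell to 64 with no filter on low counts, 29 in the reads table, 74 with 20 wells in each mouse, 63 in wells of 1000 to 3000 UMIs, 53 after thinning to 1000 UMIs and, in an alternative chosen after seeing the data, 25 without the index-sorted library of mouse 3. The last 4 alternatives also tested fewer genes. With 20 wells in each mouse and 1 mouse left out it was 59, 70 or 100. With 20 wells in each mouse, the comparison wells of mouse 3 held members, so the contrast is not the same. The count of 8 genes called lower became 78 with library totals only, 32 without the gate-sorted library, 25 with the 80 highest wells, 19 with no replicate block, 4 with the 40 highest wells, 3 after thinning, 2 with DESeq2, 2 in wells of 1000 to 3000 UMIs, 1 with 20 wells in each mouse (1 to 2 with a mouse left out), and 0 with no filter, in the reads table and without the index-sorted library. Of the 8 genes, 0 were called lower with 20 wells in each mouse, 1 in wells of 1000 to 3000 UMIs, 2 with the 40 highest wells, 2 after thinning and 2 with DESeq2. At an unadjusted p under 0.05 edgeR gave 216 lower genes with no filter, 55 in the reads table and 59 without the index-sorted library. The cause of these changes was not tested. With no replicate block 141 genes were higher, 135 of them among the 137, and DESeq2 called 105, all among the 137. Fmr1nb turned to a log2 fold change of 0.0272 with 20 wells in each mouse and mouse 3 left out. The Rn45s difference turned to 0.12 percentage points with 20 wells in each mouse. Leaving out mouse 1, which is not in the fit, and choosing wells by Kcnq1ot1 only, which gives the same 60 wells, could change nothing and are left out of the next counts. For the 21 genes named as higher, 257 of 263 planned values kept their direction and their side of the threshold, as did 53 of 104 for the 8 named as lower, and the others kept the direction but missed the threshold. In another 10 planned cases Naaa, Myoz3, 4932411N23Rik or Mir1950 could not be tested. Leaving out mouse 2 or 3 from the main fit was not run, as 1 mouse would remain. Members number 8 in mouse 2 and 1 in mouse 1, so most of the depth behind each value is from mouse 3.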
